A study of Mus musculus with 8 samples.

Results

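The OAS family is a small group of interferon-inducible genes whose proteins recognise double-stranded RNA. It was followed here through 7 genes picked by their symbols, namely Oas1a, Oas1b, Oas1g, Oas2, Oas3, Oasl1 and Oasl2, out of 45777 genes in the deposited table. All 7 had reads in every library and entered the test, for which 17975 genes had enough reads.

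The libraries came from primary hepatic stellate cells, the pericyte-like cells that store retinoids in the liver and turn into matrix-producing myofibroblasts after injury. Both groups were labelled wild-type, male and C57BL/6, and both carried the same batch label. One group of 4 libraries had been transfected with a control small interfering RNA (siControl) and the other, also of 4, with a small interfering RNA against PAK4 (siPAK4), a p21-activated serine/threonine kinase, during activation of the cells. The groups follow the treatment label of each sample, since the free-text protocol mentions just the PAK4 siRNA for every sample, controls included. The labels give no age, no time after transfection and no siRNA sequence, and they do not say whether replicates 1 to 4 came from different mice, preparations or wells, and the p-values given here reflect sample-to-sample spread that could be purely technical.

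An OAS protein bound to double-stranded RNA makes short oligoadenylates with an unusual linkage, a second messenger of the antiviral response that leads to a halt of viral growth and translation. The genes are kept low in resting cells and are induced by interferon through complexes of STAT and IRF factors, so they are often read as a record of interferon exposure. Oas1a and Oas1g encode enzymes built of a single synthetase unit, whereas Oas2 and Oas3 carry repeats of it. Oas1b is the flavivirus resistance gene of mice and is interrupted in common laboratory strains. Oasl1 and Oasl2 carry ubiquitin-like domains, and Oasl1 is known as a brake on the translation of Irf7.

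The libraries held 55728583 to 61535063 counts each. Pak4 itself was at 17.2 ± 1.14 CPM (normalised read count, with libraries brought to a common depth by the trimmed mean of M values; SD, n = 4) in siControl and at 6.32 ± 1.13 CPM in siPAK4 (log2 fold change, log2FC, −1.44, SE 0.118, adjusted p = 9.4e-06). Of 11 stellate cell markers, Dcn (425 CPM in siControl), Col1a1 (328), Acta2 (125), Reln (30.9), Pdgfrb (27.5) and Des (18.0) were present, Hand2 (2.71), Rgs5 (1.35), Lhx2 (0.469) and Ngfr (0.283 CPM) were low, and Lrat, a defining gene of quiescent stellate cells, was nearly absent at 0.0269 CPM in siControl and 0.216 CPM in siPAK4. Many macrophage and endothelial transcripts were abundant in both groups, with Lyz2 at 7810, Cdh5 at 1620 and Pecam1 at 1080 CPM in siControl, so the libraries did not hold stellate cell RNA alone. Some genes of the same lists were low in siControl, namely the macrophage genes Vsig4 (7.47), Timd4 (0.349) and Clec4f (0.0747 CPM) and the endothelial gene Clec4g (1.4 CPM). One library, siPAK4 replicate 3, lay apart from the other siPAK4 libraries on the second principal component, which held 13.3% of the variance.

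The sequences in which the family members can be compared directly are the stretches before their transcription starts, and they are shown because the interferon-stimulated response element, the site bound by the STAT and IRF complex, lies there in many induced genes. The promoter table of RefSeq (GRCm38.p6, the same coordinates as mm10) held an entry for Oas1a, Oas1g, Oas3, Oasl1 and Oasl2. In the lines below the capitals mark every match to GAAA, any 2 bases and GAAA again, a core of that element searched on both strands, and overlapping matches run into each other. The Oas1a window is chr5:120907526-120907595 and the Oas1g window chr5:120887614-120887683, both on the minus strand and both ending at the base before the start of the promoter entry. The Oas1a gene is annotated up to chr5:120907544, so nearly all of the capitals in its window lie within the annotated gene. The Oas3 window, chr5:120777690-120777759 on the minus strand, runs from 100 to 31 bases before the start.

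Oas1a: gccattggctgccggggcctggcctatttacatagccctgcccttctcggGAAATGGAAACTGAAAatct
Oas1g: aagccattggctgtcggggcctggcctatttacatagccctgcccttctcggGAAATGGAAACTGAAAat
Oas3: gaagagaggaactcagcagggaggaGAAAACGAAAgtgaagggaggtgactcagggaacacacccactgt

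Oas1a and Oas1g each held 2 overlapping matches and Oas3 held 1, whereas the 300-base windows of Oasl1 and Oasl2 held none of these letters. The Oasl1 window (chr5:114922990-114923289) is set on a start inside the gene as annotated from 114923143, so a match farther upstream would be missed. Among all 32851 RefSeq promoter windows of the same length, 1131 (3.44%) held the motif, and 74 (0.225%) held it more than once. Over 98 aligned bases before the start, Oas1a and Oas1g were 92.9% identical, while every other pair of the 5 promoters lay between 31.1% and 44% identity. A match is a run of letters only, and binding was not measured in these libraries.

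All 7 genes rose with siPAK4, by 2.41 to 4.67-fold, and in each of them the lowest siPAK4 library lay above the highest siControl library. By edgeR's quasi-likelihood test, with p-values adjusted by Benjamini-Hochberg across every tested gene, 7 of 7 were called, against a background of 26.9% of tested genes called in either direction and 12.4% called higher, and 14% of tested genes had groups that did not overlap with siPAK4 above. The median log2FC of the 7 was 1.64, beside 0.0052 over all tested genes, and their changes ranked between 61st and 282nd of 17975. In all of the tested genes 2.02% were both called higher and at least 2-fold higher. The study's libraries are bulk samples, in which fewer cells of a type and less RNA per cell cannot be told apart, and the same holds for more.

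**Figure D1:**
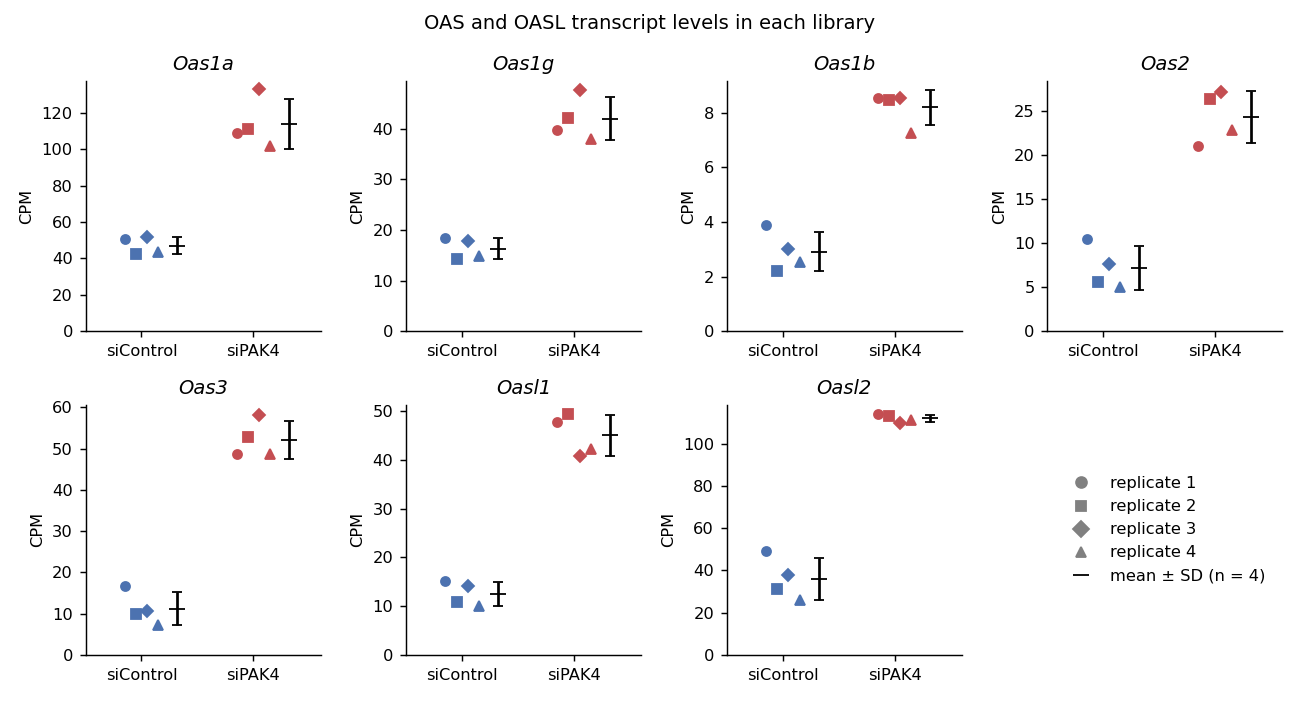
Level of each OAS gene in CPM (linear axes from 0, a scale of its own in each panel) in the 4 siControl and the 4 siPAK4 libraries, with a point for each library, its shape giving the replicate number, and a black mark and bar for the mean ± SD of each group (n = 4). In all 7 panels the siPAK4 points lie above the siControl points, with the largest ratio across the gap in Oas3, from 16.8 CPM in the highest siControl library to 48.6 CPM in the lowest siPAK4 library.

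Among the single-unit synthetases, Oas1a stood at 50.6, 42.5, 51.7 and 43.8 CPM in siControl replicates 1 to 4 and at 109, 111, 133 and 102 CPM in siPAK4 replicates 1 to 4. The siControl values lay close together, and the third siPAK4 library was the highest. The gene rose from 47.1 ± 4.65 to 114 ± 13.6 CPM (log2FC 1.27, SE 0.0922, adjusted p = 5.3e-06), the smallest change of the 7.

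Oas1g, the close copy of Oas1a, was lower in level, at 18.3, 14.3, 17.9 and 14.9 CPM in siControl and 39.7, 42.1, 47.7 and 38.0 CPM in siPAK4. Its libraries fell in the same order as those of Oas1a within siPAK4, with the third again on top and the fourth lowest. The rise was 1.36 on the log2 scale (SE 0.0992, adjusted p = 5.2e-06).

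The 2 genes cannot be fully separated by short reads. Of the 1786 stretches of 100 bases in the annotated Oas1a transcripts, 730 (40.9%) also occur in Oas1g, and for Oas1g the share is 31.2% of 2336. How the authors' counting treated reads that fit both is not given in the sources used here. When the counts of Oas1a, Oas1b and Oas1g were added up, the sum was 4026, 3302, 4279 and 3463 reads in siControl and 9081, 9486, 11392 and 8648 in siPAK4. The summed feature rose by 1.30 on the log2 scale (SE 0.0928), a value that does not depend on how reads were split between the copies.

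Oas1b was the least abundant member. It stood at 3.87, 2.22, 3.02 and 2.55 CPM in siControl and at 8.54, 8.45, 8.52 and 7.24 CPM in siPAK4, where 3 libraries were nearly equal and the fourth lay below them. Its log2FC was 1.49 (SE 0.155, adjusted p = 4.3e-05). No stretch of 100 bases of Oas1b occurred in another gene, and 2.78% of its 50-base stretches did.

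Oas1b is annotated as an interrupted gene, and RefSeq lists it as a transcribed pseudogene. In 1 of its 2 GENCODE M21 transcripts, a polymorphic pseudogene, the frame of 376 codons holds a stop at codon 253, in exon 4 of 6 (chr5:120821308-120821310, plus strand). The 63 bases around it are set below beside those of Oas1a and Oas1g, in which the matching codon is number 258 of 367, and capitals mark the codon. The lines are reference sequence and were not read from these libraries.

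Oas1b: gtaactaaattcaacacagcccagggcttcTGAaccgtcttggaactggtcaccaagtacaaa
Oas1a: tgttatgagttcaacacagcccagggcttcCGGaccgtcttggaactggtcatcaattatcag
Oas1g: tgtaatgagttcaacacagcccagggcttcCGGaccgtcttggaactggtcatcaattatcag

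Over this window Oas1a matched Oas1b at 49 of 63 bases and Oas1g at 50 of 63. GENCODE M21 also lists a second Oas1b transcript, called protein-coding, of 9 exons with a frame of 251 codons and no stop inside it, and the counts per gene do not tell the 2 transcripts apart.

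Oas2 and Oas3, the multi-unit synthetases, lie next to each other and changed more than the Oas1 genes. Oas2 had 10.5, 5.63, 7.64 and 5.04 CPM in siControl and 21.0, 26.4, 27.2 and 22.8 CPM in siPAK4. Its siControl libraries differed by a factor of 2.09 from lowest to highest, yet the highest of them was still below every siPAK4 library. Oas2 rose by 1.76 on the log2 scale (SE 0.195, adjusted p = 7.9e-05).

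Oas3, whose long protein binds long double-stranded RNA, had the largest change of the 7. It stood at 16.8, 9.93, 10.7 and 7.20 CPM in siControl and at 48.8, 52.8, 58.1 and 48.6 CPM in siPAK4. The lowest siPAK4 library was 2.89 times the highest siControl library. Its log2FC was 2.22 (SE 0.205, adjusted p = 3.4e-05), a 4.67-fold rise that ranked 61st among the 17975 tested genes.

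The OASL genes lie apart from the others on chromosome 5. Oasl1 was at 15.2, 10.8, 14.1 and 10 CPM in siControl and at 47.8, 49.3, 40.8 and 42.1 CPM in siPAK4. Here the third siPAK4 library, which was highest for Oas1a, Oas1g, Oas2 and Oas3, was the lowest. Oasl1 rose 3.60-fold (log2FC 1.85, SE 0.128, adjusted p = 3.9e-06).

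Oasl2 stood at 49.1, 31.1, 37.6 and 25.8 CPM in siControl and at 114, 113, 110 and 111 CPM in siPAK4. The siControl libraries ranged over a factor of 1.9, whereas those of siPAK4 lay within 1.03 of each other. The gene rose 3.11-fold (log2FC 1.64, SE 0.155, adjusted p = 3e-05).

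Levels can be set side by side between genes only when scaled for transcript length. The authors' TPM values, scaled to transcript length and to a common total, were used for that. The levels of Oas1a and Oas1g, and their places in the order, also depend on how reads that fit both were assigned, which is not known. In siControl Oas1a was highest at 57.7 ± 4.82 TPM (SD, n = 4), followed by Oasl2 at 26.4 ± 7.79, Oas1g at 17.3 ± 2.37 and Oasl1 at 12.3 ± 2.71 TPM. Oas3 (5.14 ± 1.96 TPM), Oas2 (3.58 ± 1.25 TPM) and Oas1b (3.38 ± 0.903 TPM) came last, and their library values overlapped. Oas1a stood clear of Oasl2 in siControl, while Oasl2 overlapped Oas1g, and Oas1g overlapped Oasl1 by a narrow margin (15.2 TPM in the lowest library of Oas1g and 15.3 TPM in the highest of Oasl1).

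In siPAK4 the order was Oas1a at 137 ± 13.6 TPM, Oasl2 at 87.4 ± 6.26, Oasl1 at 46.0 ± 7.27, Oas1g at 45.3 ± 3.99, Oas3 at 24.4 ± 1.79, Oas2 at 12.2 ± 0.996 and Oas1b at 9.79 ± 1.14 TPM. Every neighbouring pair was separated in siPAK4 except Oasl1 and Oas1g, whose libraries overlapped. The summed level of the family was 152, 113, 134 and 104 TPM in siControl and 376, 381, 364 and 326 TPM in siPAK4. Within that sum Oas1a made up 46.4 ± 4.01% in siControl and 37.8 ± 2.44% in siPAK4, and Oas3 made up 3.99 ± 0.881% and 6.73 ± 0.207%. These shares describe the mixture of transcripts and were not tested, and that of Oas1a depends on how reads shared with Oas1g were assigned.

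**Figure D2:**
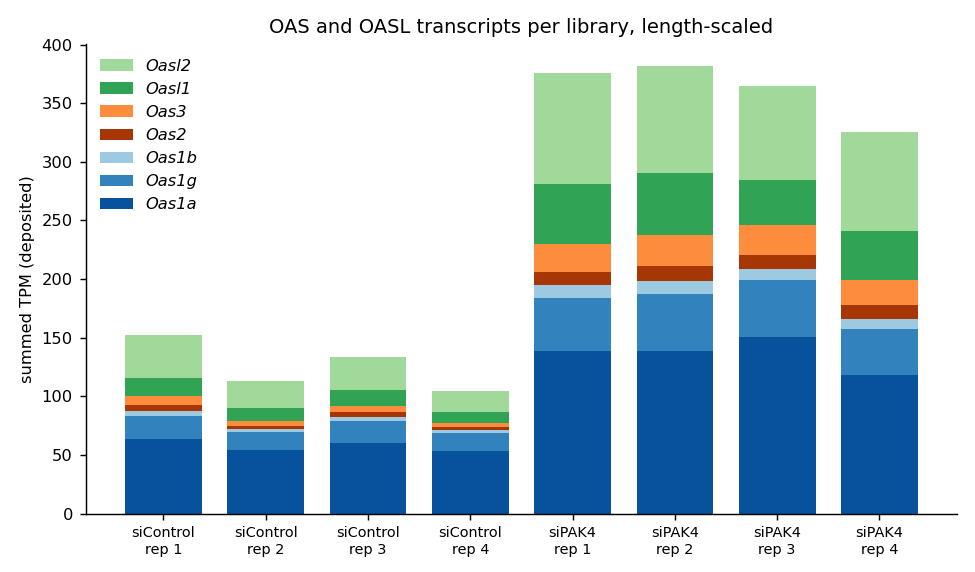
Deposited TPM of the 7 genes stacked into 1 bar for each of the 8 libraries (linear axis from 0), each colour standing for a gene. The bars reach 104 to 152 TPM in siControl and 326 to 381 TPM in siPAK4, and Oas1a is the largest segment in every bar. How reads shared by Oas1a and Oas1g were assigned is not known.

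Whether paired members of the family moved by unlike amounts was tested on their count ratios within each library, which do not depend on scaling between libraries. The log2 ratio of Oas2 to Oas3 was −0.67, −0.82, −0.49 and −0.51 in siControl and −1.22, −1.0, −1.10 and −1.09 in siPAK4, so the groups did not overlap. The difference of −0.48 gave an exact two-sided permutation p of 0.0286, the smallest that 4 against 4 can give, and an adjusted p of 0.0857 over the 3 ratios tested. The ratio of Oasl2 to Oasl1 differed by −0.19 (exact permutation p = 0.143, adjusted p = 0.143) and that of Oas1b to Oas1a by 0.25 (exact permutation p = 0.114, adjusted p = 0.143). With this sample size a single ratio at the smallest possible p is always adjusted to 0.0857 over 3 ratios, so the adjusted test could not pass for Oas2 over Oas3 alone and does not bear on whether its groups differ.

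The family's spread between replicates was wider in siControl than in siPAK4, as a description without a test. The SD was taken on log2 CPM with a small constant added to CPM before the log. It had a median of 0.295 over the 7 genes in siControl and 0.133 in siPAK4. It was the larger in siControl for 6 of 7, with Oas1a the exception. Over 11361 genes of at least 5 CPM the medians were 0.0917 and 0.107, and siControl had the larger SD in 39.7% of them. The trait was not particular to the family. Each listed gene of the other interferon-stimulated genes also had the larger SD in siControl. On log2 CPM without the constant these ran from Ifit1 (0.715 in siControl and 0.158 in siPAK4) to Bst2 (0.0731 and 0.0575). In siControl the highest library was 2.33 times the lowest for Oas3, 2.09 times for Oas2 and 1.22 times for Oas1a.

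One siControl library carried most of the high values. Replicate 1 was the highest siControl library in 6 of 7 members (Oas1a was highest in replicate 3) and in 12 of 12 other interferon-stimulated genes, against 28.2% of all tested genes. Replicate 4 was the lowest in 4 members and in 12 of 12 of the other interferon-stimulated genes, and replicate 2 was the lowest in the other 3 members. Without siControl replicate 1 the median change of the members was 1.83 on the log2 scale, and without siControl replicate 4 it was 1.51. All 7 were called higher in both cases.

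**Figure D3:**
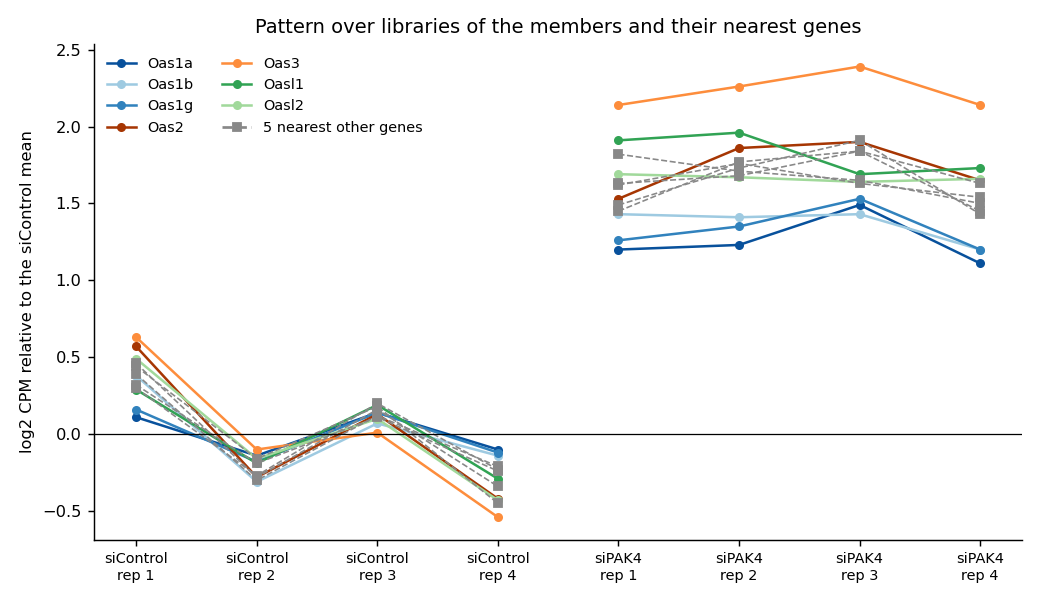
Log2 CPM (a small constant added before the log) of the 7 OAS genes and of the 5 genes with the nearest pattern. Values are relative to each gene's siControl mean, in the 8 libraries. Lines join the values of a gene within a group, and replicates have no order. In siControl nearly all genes are highest in replicate 1 and low in replicates 2 and 4, and in siPAK4 Oas3 lies above the other genes.

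The 5 genes nearest to the family's mean pattern were all interferon-inducible. Likeness was the root mean square distance between a gene's log2 CPM relative to its siControl mean and the mean of the 7 members. It was taken over 8 libraries and 11354 candidate genes, with the same small constant added before the log. Gbp3, a guanylate-binding protein gene, was nearest at 0.0523, followed by Rtp4 (0.0882), Gbp6 (0.0936), Cmpk2 (0.0971) and Gbp10 (0.101), while the median candidate was at 1.17. The members' own distances ran from 0.0903 for Oasl2 to 0.447 for Oas3, which rose more than the rest. Gbp3 went from 39.4 to 122 CPM (log2FC 1.63), and Gbp6 by the same log2 amount from 25.7 to 79.6 CPM. The 8 libraries all enter this measure, so it describes likeness in these samples.

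Beside the 7, the table holds Oas1c, Oas1d, Oas1e, Oas1f and Oas1h, the remaining genes of the Oas1 group. Oas1c had 218, 229, 252 and 257 reads in siControl and 339, 414, 443 and 375 in siPAK4, and rose by 0.66 on the log2 scale (SE 0.107, adjusted p = 0.00084), less than any member. The other 4 had too few reads to be tested. Oas1d had between 0 and 12 reads in a library, Oas1e and Oas1f had 2 reads each in a single siPAK4 library, and Oas1h had none.

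Genes known to limit the oligoadenylate pathway did not pass the test. Abce1, a ribosome recycling factor also known as an inhibitor in this pathway, had 240 ± 10.7 CPM in siControl and 250 ± 17.8 CPM in siPAK4 (log2FC 0.06, adjusted p = 0.52). Pde12, an enzyme that degrades the oligoadenylates, differed by 0.08 (SE 0.0639, adjusted p = 0.37), and Akap7, an anchoring protein with a related phosphodiesterase domain, by −0.02 (SE 0.0924, adjusted p = 0.91). Of these 3 genes 0 were called by edgeR, by DESeq2 or by limma-voom, and 0 had an unadjusted p under 0.05 by edgeR.

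**Figure D4:**
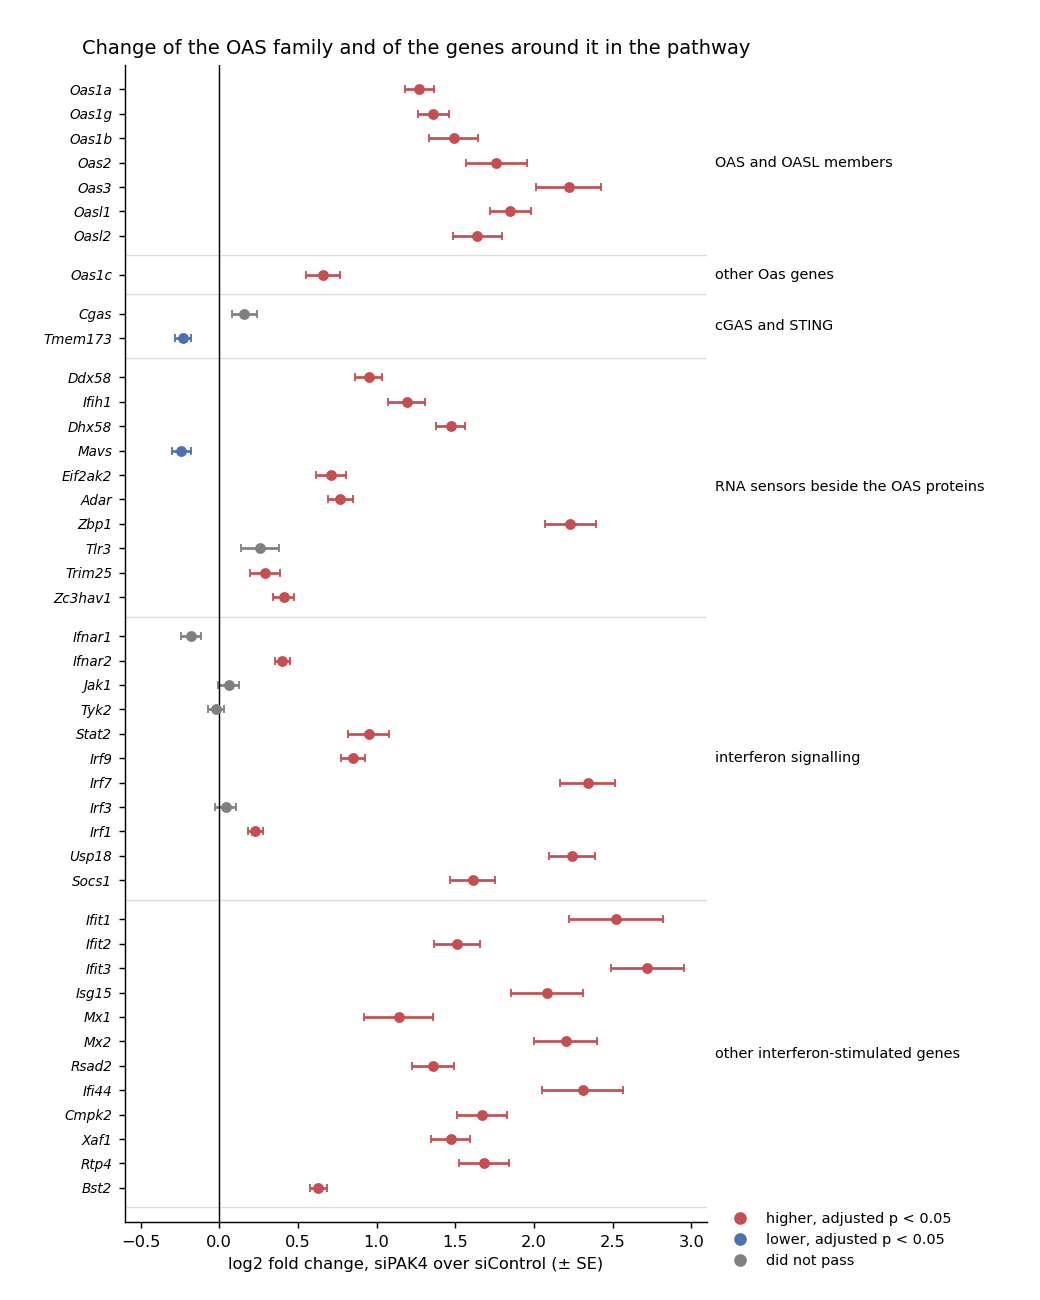
Log2 fold change (siPAK4 over siControl, ± SE) of the OAS genes, of Oas1c, and of genes around them in RNA and DNA sensing and the interferon response, coloured by the call. All 7 members lie between 1.27 and 2.22, and Oas1c lies at 0.66.

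Other sensors of RNA rose with the family but mostly by less. Of 10 listed genes 8 were called higher and 1 lower, beside 12.4% and 14.5% of all tested genes. A further 1 missed the threshold, and the median was 0.74. The eighth, Trim25, a ubiquitin ligase gene named after its value was seen, was not called in 10 alternatives (adjusted p of 0.005 to 0.12 over all). Zbp1, a sensor of left-handed nucleic acids that triggers cell death, rose by 2.23 on the log2 scale, from 7.32 to 34.4 CPM, which is as large as the change of Oas3. Dhx58 (1.47), Ifih1 (1.19) and Ddx58 (0.95), the RIG-I-like receptors, rose too. The gene that was lower was Mavs, their mitochondrial adaptor (log2FC −0.24, adjusted p = 0.011), and Tlr3 did not pass (0.26, adjusted p = 0.14). These 2 were added to the named genes after their values were seen.

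For the parallel sensing of cytosolic DNA, Cgas was at 10.2 ± 0.670 CPM in siControl and 11.4 ± 0.435 CPM in siPAK4 (log2FC 0.16, adjusted p = 0.16). Tmem173, which encodes the adaptor STING, fell from 48.9 ± 0.642 to 41.7 ± 1.76 CPM (log2FC −0.23, adjusted p = 0.0084). With library totals in place of the trimmed mean scaling, Tmem173 and Mavs were no longer called and Cgas was called higher (log2FC 0.25, adjusted p = 0.027). Tmem173 also lost its call on the TPM scale (−0.20, adjusted p = 0.13).

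Of 13 genes of interferon signalling, 12 could be tested. Of these, 8 rose, 0 fell and 4 missed the threshold, beside 12.4% higher and 14.5% lower over all tested genes. The median was 0.60. Irf7, the transcription factor whose translation Oasl1 is known to hold back, rose by 2.34 (37.7 ± 11.3 to 191 ± 9.58 CPM). Usp18, a feedback inhibitor of the receptor, rose by 2.24 (27.5 to 130 CPM) and Socs1 by 1.61 (1.53 to 4.69 CPM), all on the log2 scale. The 4 that missed it were the receptor chain gene Ifnar1 (−0.18, adjusted p = 0.068, lower at an unadjusted p under 0.05 and by DESeq2), the kinase genes Jak1 and Tyk2, and Irf3. Ifnb1, the interferon beta gene, was too low to test, at 0, 0, 2 and 0 reads in siControl and 10, 13, 30 and 3 in siPAK4, and it was singled out after its values were seen. It was tested in 6 alternatives (no filter, each siControl library left out, and siPAK4 replicate 4 left out) and was called higher in all 6 (edgeR adjusted p of 0.0033 to 0.027). These 6 share most of their reads. In those that left out a library, Ifnb1 passed the filter only through siPAK4 libraries, where it was high. The 6 calls are therefore not independent support.

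The remaining list of 12 classical interferon-stimulated genes was called higher in 12 of 12, beside 12.4% of all tested genes. The median of the list was 1.67, close to the 1.64 of the members. Mx2, an antiviral GTPase gene, rose by 2.2, Xaf1 by 1.47, Cmpk2 by 1.67 and Bst2, which encodes the virion tether tetherin, by 0.63. Their summed level was 373 to 539 CPM in siControl and 1060 to 1230 CPM in siPAK4.

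The members lie in 2 places on chromosome 5. Oasl2 (chr5:114896926-114912245) and Oasl1 (chr5:114923143-114937911) are side by side over 41.0 kb on the plus strand. The other 5 form a cluster of 177.2 kb (chr5:120730333-120907544) in the order Oas2, Oas3, Oas1b, Oas1g and Oas1a, with Oas1c between Oas3 and Oas1b. A further 30 protein-coding RefSeq genes start within 250 kb of the start of a member. Of these, 25 are not Oas genes, and 20 of those 25 had enough reads. Among these 2 rose, 3 fell and 15 missed the threshold. Over all tested genes 12.4% were called higher and 14.5% lower, so these counts are near the background.

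The largest change among the neighbours that fell was smaller than that of any member. Mlec, an endoplasmic reticulum lectin gene near the Oasl pair, fell by 0.39 on the log2 scale (adjusted p = 0.0012). Gltp, a glycolipid transfer protein gene, fell by 0.28 (adjusted p = 0.035), and Ptpn11, which encodes a tyrosine phosphatase of growth factor signalling, beyond the Oas1 end of the cluster, fell by 0.20 (adjusted p = 0.015). The 2 that rose, named here after their values were seen, were Rita1 (log2FC 0.31, adjusted p = 0.039) and 2210016L21Rik (0.19, adjusted p = 0.047). Both lost their calls with no filter and without siControl replicate 1, 3 or 4 or siPAK4 replicate 1, 2 or 4, with adjusted p of up to 0.1 and 0.13 over the alternatives. With library totals in place of the trimmed mean scaling, 6 of the flanking genes were higher and 1 lower, Oas1c included, and neither Gltp nor Ptpn11 was called (adjusted p of 0.11 and 0.14). Gltp also lost its call without siControl replicate 1, 2 or 3 or siPAK4 replicate 1, 2 or 4 (adjusted p of 0.054 to 0.11), and both lost it on the TPM scale.

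**Figure D5:**
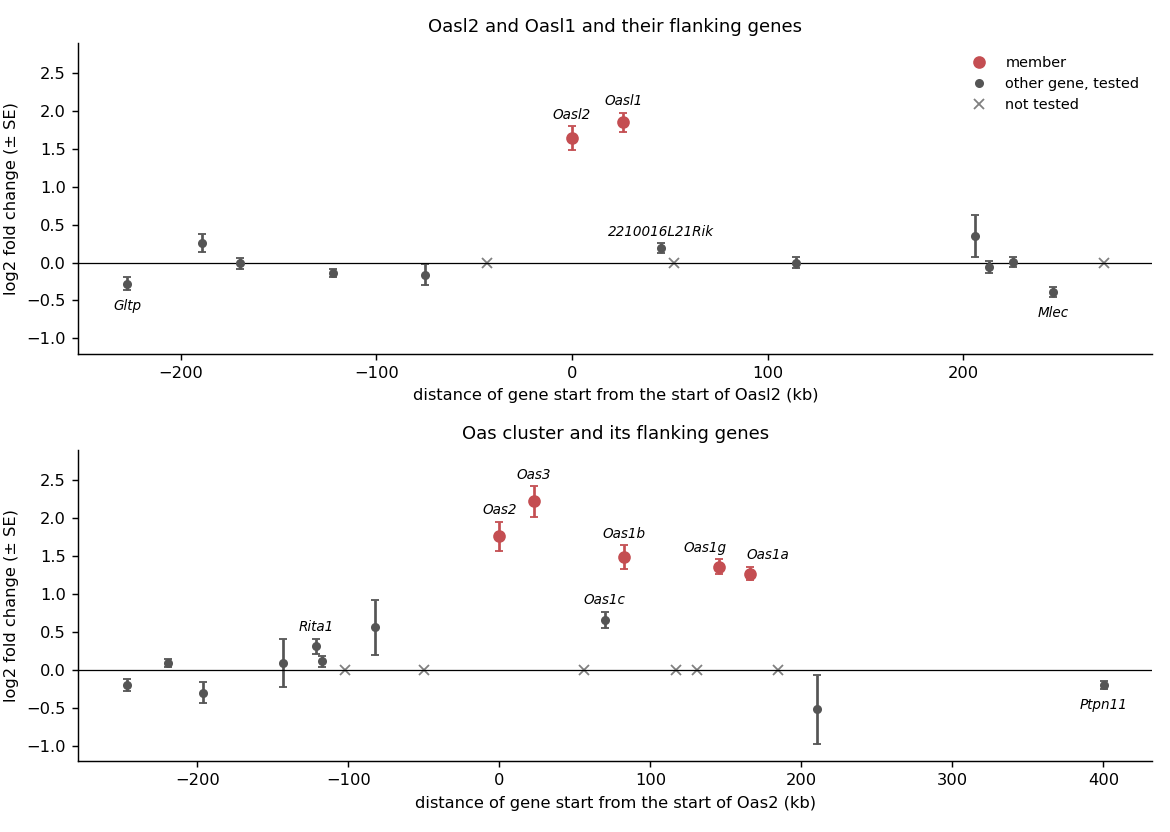
Log2 fold change (± SE) of the OAS genes and of protein-coding genes that start within 250 kb of the start of a member. The horizontal axis gives the distance of each gene's start from that of Oasl2 (upper panel) or Oas2 (lower panel), in kb. Crosses on the zero line mark genes with too few reads to test. The members lie at 1.27 or above in both places, and Oas1c at 0.66 lies between them and the other neighbours.

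Marker lists of other cell types moved between the groups beside the OAS genes. Over all tested genes 12.4% were called higher and 14.5% lower. Of 12 tested macrophage markers 8 were lower (Vsig4, Cd5l, Csf1r, Marco, C1qa, C1qb, C1qc and Lyz2) and 0 higher. The list summed to 9210 to 10700 CPM in siControl and 5160 to 8330 CPM in siPAK4, most of it Lyz2 (means of 7810 and 4850 CPM). The 4 others did not pass, namely Adgre1 (386 and 425 CPM), Cd68 (241 and 234 CPM), Cd14 (69.3 and 64.6 CPM) and Timd4 (0.349 and 0.0839 CPM). Endothelial markers were higher in 4 (Clec4g, Tek, Oit3 and Fcgr2b) and lower in 5 (Cdh5, Stab2, Lyve1, Emcn and Dnase1l3) of 12, with summed levels of 5410 to 5460 and 3310 to 4770 CPM. Hepatocyte markers were higher in 5 of 7 tested (Alb, Hpx, Apob, Ahsg and Serpina3k) but low in both groups, at 3.02 to 5.98 and 10.9 to 29.9 CPM.

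Stellate cell markers were lower in 4 of 10 tested, beside 14.5% of all tested genes. The 4 were Des, Pdgfrb, Acta2 (125 to 40.4 CPM) and Col1a1 (328 to 122 CPM). The other 6 did not pass. Of these, Dcn, the most abundant of the list (425 and 479 CPM), Reln, Rgs5, Lhx2 and Hand2 had higher means in siPAK4, and Ngfr a lower one. The sums were 831 to 1040 CPM in siControl and 669 to 790 CPM in siPAK4. Lymphocyte markers summed to 1.03 to 1.45 CPM in siControl and 1.04 to 1.48 CPM in siPAK4. Neutrophil markers summed to 6.86 to 11.4 and 10.8 to 14.1 CPM, nearly all of it S100a8 (8.66 and 11.8 CPM), with Ly6g and Retnlg at 0. The 5 markers of plasmacytoid dendritic cells, which make much interferon, summed to 396 to 440 and 371 to 497 CPM, nearly all of it Tcf4 (415 and 436 CPM), a gene that many other cell types also express. Runx2 was at 4.25 and 2.89 CPM, Ccr9 at 0.188 and 0.128 CPM, Siglech at 0.0348 and 0 CPM, and Klk1 at 0 in both groups. The part of these shifts in the rise of the OAS genes was not tested.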

How the data were processed

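Polyadenylated RNA of 8 libraries was sequenced after a stranded mRNA kit, per the labels' protocols. The authors deposited 3 values a gene and library for 45777 genes: whole-number counts of reads, FPKM (not used) and TPM, per the file headers. Per the submitters' processing notes, the genome build was mm10 and the tools were HISAT2 2.1.0, Bowtie2 2.3.4.1, StringTie 2.1.3b, FastQC 0.11.7 and bcl2fastq 2.20.0; how reads were counted, with or without strand, and what became of multiply mapped reads is not given in the sources used here. Counts were analysed as deposited in R 4.3.3 with edgeR 4.0.16 (TMM scaling, filterByExpr, robust quasi-likelihood test), with Benjamini-Hochberg adjustment over 17975 genes and a threshold of 0.05. Each SE was derived from that test, as the absolute log2 fold change divided by the square root of the F statistic. The procedure was checked on simulated data. Of the genes, 17287 had no read. No pair of libraries in a group agreed within sampling noise (chi-square per degree of freedom 12.7 to 67.8).

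The members, gene lists and tests were chosen with earlier results of these data known, so no p-value was computed over a list. Named genes were all members, all genes of the lists of other Oas genes, regulators of the oligoadenylate pathway, and cGAS and STING, up to 4 of smallest adjusted p in each other list, and the 5 nearest in pattern; some of these genes are not reported here. DESeq2 1.42.0, limma 3.58.1, TPM on log2(TPM + pseudocount), other filters, library totals, a replicate block, summed Oas1 counts and leaving out each library served as alternatives. Promoter sequences came from RefSeq GRCm38.p6 and transcripts from GENCODE M21.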

Additional observations from a re-analysis of the deposited data

Results flagged for a closer look

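Among the 14 sets of 4 values given by 7 genes in 2 groups, 1 had a library far from the other 3. Oas1b in siPAK4 replicate 4 was at 7.24 CPM, below 8.45, 8.52 and 8.54 CPM in the other siPAK4 libraries, by a gap that exceeded Dixon's 95% limit. Chance flags about 1 in 20 such sets. Without that library Oas1b remained called higher.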

How the results depend on the processing

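All 7 members were called higher under every alternative that was run, 5 of 5 features when the Oas1 counts were summed. Over the alternatives the log2 fold change ran from 1.18 to 1.36 for Oas1a, 1.32 to 1.66 for Oas1b, 1.29 to 1.45 for Oas1g, 1.57 to 1.99 for Oas2, 2.06 to 2.49 for Oas3, 1.75 to 1.95 for Oasl1 and 1.51 to 1.83 for Oasl2, and the largest adjusted p was 0.0013. Library totals moved the median of all genes to 0.09 and the share of higher among called genes from 46.1% to 67.6%, with 3877 genes higher in place of 2227. They gave 0 lower RNA sensors, 1 higher and 0 lower of Cgas and Tmem173, and 6 higher and 1 lower flanking genes. With TPM and either pseudocount, 0 of Cgas and Tmem173 and 1 flanking gene were lower. Without the filter 1 flanking gene was higher. With DESeq2 1 interferon signalling gene, Ifnar1, was lower. Leaving out 1 library gave 0 to 1 lower genes for interferon signalling (1 without siPAK4 replicate 4), and 1 to 4 higher flanking genes. The causes were not tested. The replicate numbers showed no clear pairing of the libraries (correlations 0.18, −0.08, 0.27 and −0.17, and 1 of 4 siControl libraries correlated best with its own number). With groups of 4 libraries such a check cannot exclude pairing. With the replicate block all 7 members were called higher (Oas3 2.28, Oas1a 1.27). Depth limits Oas1d, Oas1e, Oas1f and Oas1h. Ifnb1 entered the test in 6 alternatives, on largely the same reads, and was called higher in each. Where a library was left out, it passed the filter only through siPAK4 libraries, so these calls are not independent support. With Ifnb1 counted, those alternatives held 9 higher interferon signalling genes in place of 8.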
